A study of Mus musculus with 24 samples.

Results

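Untreated eosinophils whose genotype was labelled Irf5-/- were compared with untreated wild-type eosinophils, over all genes. The comparison took 3 libraries of each genotype, 6 of the 24 libraries of the series, chosen by their titles. Both groups came from bone marrow of C57BL/6 mice. Growth began on day 0 with FLT3 ligand and stem cell factor, both at 100 ng/ml, and from day 4 on interleukin-5 (IL-5) was given at 10 ng/ml. At day 13 dead cells were removed and the rest were kept overnight in IL-5, with nothing added for the untreated groups. Each genotype also had 3 libraries kept overnight with 20 ng/ml of the granulocyte-macrophage colony-stimulating factor GM-CSF. A second reference was 3 untreated libraries labelled Csf2ra-/-, whose label names the alpha chain of the receptor for GM-CSF. The fit over all 24 libraries also held wild type with interleukin-10, wild type with GM-CSF and interleukin-10, and GM-CSF libraries labelled Csf2ra-/-. The labels do not say how the alleles were made, and give no age or sex. They speak of triplicates without naming separate animals or cultures, so the p-values measure only the spread between these libraries.

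IRF5 is a transcription factor of the interferon regulatory factor family. It rests in the cytoplasm and is activated below endosomal Toll-like receptors through MyD88 and TRAF6, after which it enters the nucleus and drives genes of inflammatory cytokines and type I interferons. In macrophages and dendritic cells it is known for supporting an inflammatory state. Eosinophils are granulocytes that depend on IL-5 and store cationic granule proteins such as major basic protein (Prg2) and eosinophil peroxidase (Epx).

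The targeted gene was read first. Irf5 (ENSMUSG00000029771, GRCm38 chromosome 6, 29526625 to 29541871, plus strand) stood at 1577, 1891 and 1569 counts scaled to library size, abbreviated CPM, in the 3 untreated libraries labelled Irf5-/-. It stood at 47.6, 55.4 and 59.6 CPM in the 3 untreated wild-type libraries. The labelled libraries were the high ones and no library of one group came near the other. The means were 1679 ± 184 and 54.2 ± 6.07 CPM (SD, n = 3), a ratio of 31.0, and the log2 fold change was 4.95 ± 0.19 (SE; edgeR quasi-likelihood test, Benjamini-Hochberg adjusted p = 4.436e-14). These counts run counter to the genotype label, so every direction given here is for the libraries labelled Irf5-/-. Which exons of Irf5 the reads covered is not known from gene-level counts, and whether a functional protein was made was not tested. The 3 untreated libraries labelled Csf2ra-/- held 37.7, 28.3 and 37.1 CPM of Irf5, below each wild-type library.

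**Figure D1:**
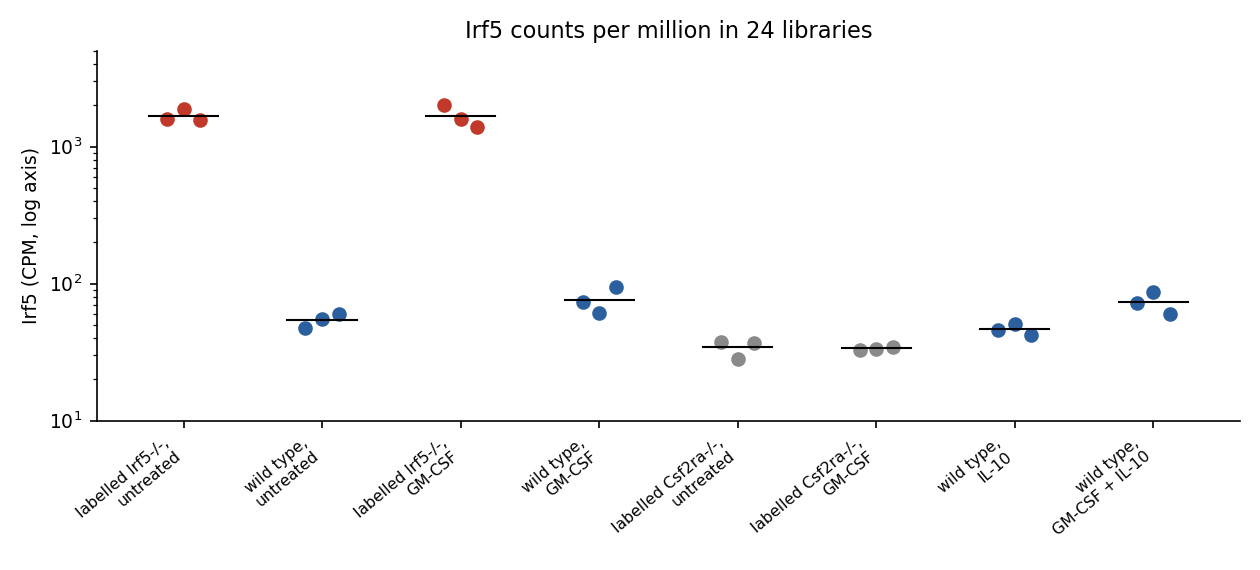
Irf5 in CPM (log axis) in each of the 24 libraries by group, 3 points a group with a line at the mean, red for libraries labelled Irf5-/-, blue for wild type and grey for libraries labelled Csf2ra-/-. The 6 red points lie at 1394 to 1999 CPM and the other 18 at 28.3 to 94.3 CPM.

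The 250 bases before the RefSeq start (build GRCm38.p6) are shown for the genes the comparison turns on, 3 of the 4 genes it called and 3 targets of the stress programmes described further on. They are written 5′ to 3′ on the gene's own strand. Capitals mark a motif match on either strand: the ISRE core, GAAA and GAAA with any 2 bases between them, from the interferon-stimulated response element that IRF factors bind, searched in Irf5, Plk3 and Bmt2, ACGTG, the core of the hypoxia response element, in Bnip3 and Hk2, and TGATGNAA, a core of the C/EBP-ATF response element that ATF4 binds, in Asns.
Irf5, chr6:29526375-29526624, plus strand: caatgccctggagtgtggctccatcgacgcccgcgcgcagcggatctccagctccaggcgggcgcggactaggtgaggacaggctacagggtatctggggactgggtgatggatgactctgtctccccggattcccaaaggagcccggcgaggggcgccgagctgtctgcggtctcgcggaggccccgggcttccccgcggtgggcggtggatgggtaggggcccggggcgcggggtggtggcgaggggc
Plk3, chr4:117133964-117134213, minus strand: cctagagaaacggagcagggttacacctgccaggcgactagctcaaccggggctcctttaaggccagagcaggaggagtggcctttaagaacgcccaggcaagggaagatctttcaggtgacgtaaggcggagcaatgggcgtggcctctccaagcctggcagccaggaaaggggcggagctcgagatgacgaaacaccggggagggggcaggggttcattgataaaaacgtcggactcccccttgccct
Bmt2, chr6:13677967-13678216, minus strand: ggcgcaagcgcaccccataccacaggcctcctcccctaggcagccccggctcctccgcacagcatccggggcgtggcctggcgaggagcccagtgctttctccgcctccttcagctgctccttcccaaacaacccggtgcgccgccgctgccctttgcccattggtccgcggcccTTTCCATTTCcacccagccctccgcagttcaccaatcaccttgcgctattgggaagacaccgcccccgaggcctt
Bnip3, chr7:138909507-138909756, minus strand: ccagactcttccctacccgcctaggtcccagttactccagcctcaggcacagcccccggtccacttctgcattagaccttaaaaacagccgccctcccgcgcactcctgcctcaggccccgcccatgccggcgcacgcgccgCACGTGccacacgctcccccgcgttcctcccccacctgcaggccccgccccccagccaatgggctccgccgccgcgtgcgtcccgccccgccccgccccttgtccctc
Hk2, chr6:82774455-82774704, minus strand: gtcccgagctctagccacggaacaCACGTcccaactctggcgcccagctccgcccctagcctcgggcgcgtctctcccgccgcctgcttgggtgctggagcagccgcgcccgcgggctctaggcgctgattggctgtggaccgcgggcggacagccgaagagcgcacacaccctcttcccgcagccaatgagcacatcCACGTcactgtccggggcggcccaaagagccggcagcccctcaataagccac
Asns, chr6:7693210-7693459, minus strand: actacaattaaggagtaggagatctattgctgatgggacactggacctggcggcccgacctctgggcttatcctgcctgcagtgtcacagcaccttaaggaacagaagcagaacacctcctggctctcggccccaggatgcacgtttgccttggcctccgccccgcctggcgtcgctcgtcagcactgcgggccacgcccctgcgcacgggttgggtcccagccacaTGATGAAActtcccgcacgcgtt

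The windows of Irf5 and Plk3 held no match to the ISRE core, and that of Bmt2 held 1, whose first base lies at -75 from the start. Rab7b had no entry in the table. Over windows of 300 bases (250 before and 50 after the start), the ISRE core occurred in 3.44% of all 32851 promoters and in 3.1% of those of the tested genes. These matches are descriptions of letters and not of binding.

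Few of the remaining genes were called in the main test. edgeR, fitted over all 24 libraries, called 4 of 11885 tested genes at an adjusted p under 0.05 (0.0337% of those tested), 2 higher in the libraries labelled Irf5-/- (Irf5 and Plk3, 0.0168%) and 2 lower (Rab7b and Bmt2, 0.0168%). At an unadjusted p under 0.05 there were 1668 genes (14%), 706 higher (5.94%) and 962 lower (8.09%). Over all tested genes the median log2 fold change was -0.0048. limma-voom also called 4 genes (0.0337%) and DESeq2 called 23 (0.194%), and both sets held these 4.

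Plk3 (ENSMUSG00000028680, chromosome 4, 117128655 to 117133963, minus strand) encodes a polo-like kinase of the stress response. It was read at 34.1, 37.4 and 31.7 CPM in the libraries labelled Irf5-/- and at 16.7, 16.6 and 15.9 CPM in wild type. The groups did not overlap, and the log2 fold change was 1.07 ± 0.18 (adjusted p = 0.0192). The adjusted p ranged from 0.0234 to 0.223 when single libraries were left out. Rab7b (ENSMUSG00000052688, chromosome 1, 131688695 to 131715439, plus strand) encodes a small GTPase of late endosomal and Golgi transport. Its levels were 1.28, 2.54 and 1.96 CPM against 5.55, 6.72 and 6.28 CPM, low in every labelled library (-1.61 ± 0.25, adjusted p = 0.0105, leaving out libraries 0.0204 to 0.0968). Bmt2 (ENSMUSG00000042742, chromosome 6, 13625673 to 13677966, minus strand), also known as Samtor, encodes a sensor of S-adenosylmethionine upstream of mTORC1. It was read at 29.9, 30.0 and 38.2 CPM against 52.5, 62.2 and 54.9 CPM (-0.78 ± 0.14, adjusted p = 0.0276, leaving out libraries 0.0207 to 0.437). Irf5 was the only gene of the 4 called in each of the 6 fits that left a library out.

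The same 3 genes were read in the other groups. In untreated libraries labelled Csf2ra-/-, Plk3 stood at 30.1, 30.5 and 22.2 CPM, Rab7b at 1.85, 0.707 and 1.12 CPM and Bmt2 at 32.6, 32.2 and 38.6 CPM. For all 3 genes these libraries lay on the side of the libraries labelled Irf5-/- and apart from untreated wild type. Against that reference the log2 fold changes were 0.32 for Plk3, 0.81 for Rab7b and -0.07 for Bmt2, with adjusted p of 0.44, 0.224 and 0.864, with 93 of all genes (0.782%) called against it, and both comparisons share the libraries labelled Irf5-/-. With GM-CSF, Plk3 was read at 22.01, 37.5 and 28.8 CPM in the libraries labelled Irf5-/- and at 14.7, 21.1 and 15.6 CPM in wild type, without overlap and not called (0.78 ± 0.17, adjusted p = 0.292). Rab7b was low in both GM-CSF groups, at 2.25 to 2.70 and 2.51 to 3.04 CPM. Bmt2 then stood at 50.3, 41.0 and 45.7 CPM against 55.4, 49.4 and 54.8 CPM, with overlap (-0.22 ± 0.13).

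**Figure D2:**
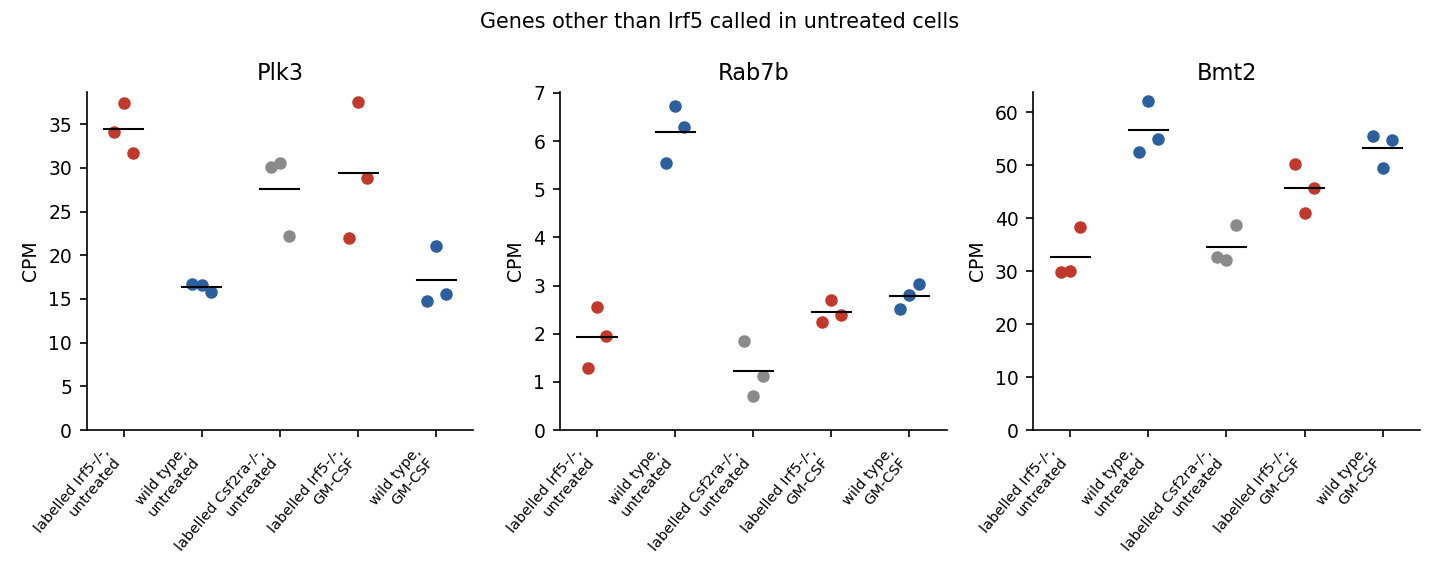
CPM of Plk3, Rab7b and Bmt2 by library in 5 groups, with a line at each mean and axes starting at 0, red for libraries labelled Irf5-/-, blue for wild type, grey for libraries labelled Csf2ra-/-. Untreated wild type stands apart from both other untreated groups for each gene, and Rab7b lies at 2.25 to 3.04 CPM in all 6 GM-CSF libraries.

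How many genes were called depended on which libraries were fitted, which also set the filter and the scaling. With the 6 libraries alone, edgeR called 562 of 11344 genes (4.95%), 149 higher (1.31%) and 413 lower (3.64%) in the libraries labelled Irf5-/-. These included the 4 genes of the fit over 24 libraries, 435 of them had an unadjusted p under 0.05 there, and 558 had groups that did not overlap. Most differences were small, with 12 genes at least 2-fold higher and 78 at least 2-fold lower. The count ran from 57 without wild-type replicate 2 to 1526 without wild-type replicate 1. It was 165 and 233 without replicates 1 and 3 labelled Irf5-/-, and 193 without wild-type replicate 3. The biological coefficient of variation was 14.1% over 24 libraries and 10.251% over these 6. In the following paragraphs, a gene said to be called, higher or lower over the 6 libraries was picked after its values were seen and did not pass the untreated test over 24 libraries.

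**Figure D3:**
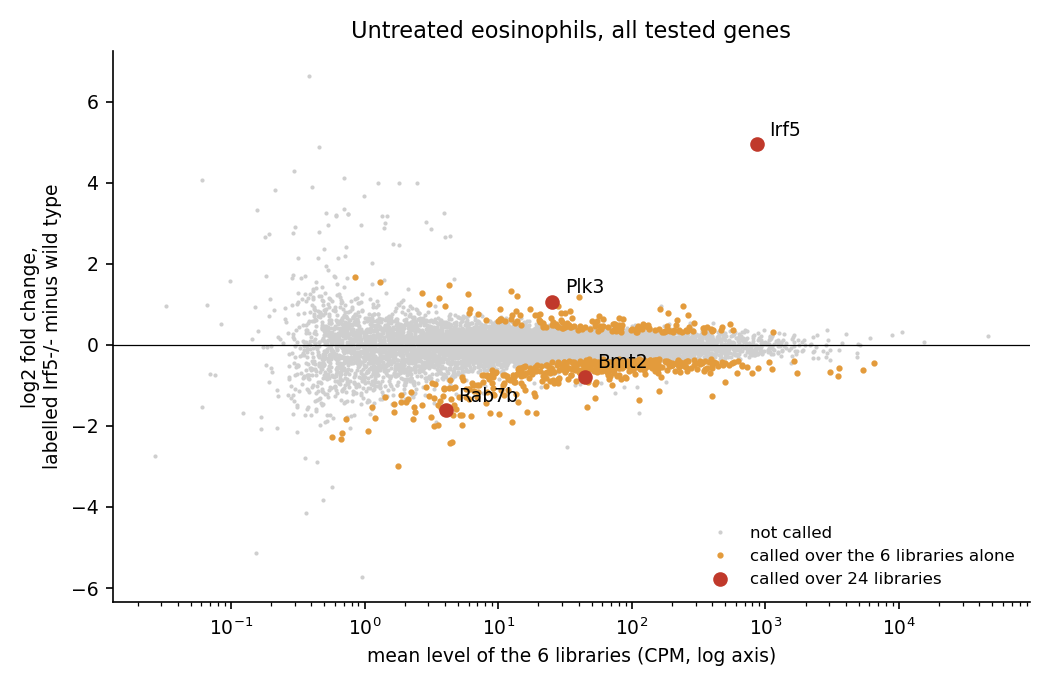
Log2 fold change (libraries labelled Irf5-/- minus wild type, untreated) against mean level in CPM (log axis) for all 11885 tested genes, with the 4 genes called over 24 libraries in red and those called only over the 6 libraries in orange. Irf5 stands alone at 4.95, and most orange points lie below 0.

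The genes called over the 6 libraries moved together within other groups too. Across all 24 libraries the median deviation of the 413 lower genes from their own mean was -0.35, -0.28 and -0.25 log2 units in the untreated libraries labelled Irf5-/-. In untreated wild type it was 0.09, 0.42 and 0.38. These genes were selected for differing between these 6 libraries with little spread within a group, so that split and a low spread there are no finding. Wild-type replicate 1 lay nearest to the other group. Wild type with GM-CSF gave 0.12, -0.27 and 0.36, wild type with GM-CSF and interleukin-10 gave 0.20, 0.48 and -0.31, and the GM-CSF libraries labelled Irf5-/- gave 0.21, -0.20 and -0.18. In the libraries labelled Csf2ra-/- the untreated values were -0.55, -0.40 and 0.15. Libraries of 1 genotype and 1 treatment thus lay on both sides of the mean in 5 of the 8 groups. The median within-group SD of these genes was 0.26 to 0.40 in those 5 groups, where all tested genes had 0.13 to 0.27. Over the comparison with GM-CSF, the median log2 fold change of the 413 genes was -0.13 against -0.59 untreated, and that of the 149 higher genes 0.09 against 0.49. Of the 562 genes, 483 had the same sign with GM-CSF and 15 had groups that did not overlap in the same direction, where 3.25% of all tested genes were higher and 3.4% lower without overlap with GM-CSF. The share of all tested genes with the same sign was not counted. Whether the treatments shared cultures was not tested either, so the same sign is no independent repeat.

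**Figure D4:**
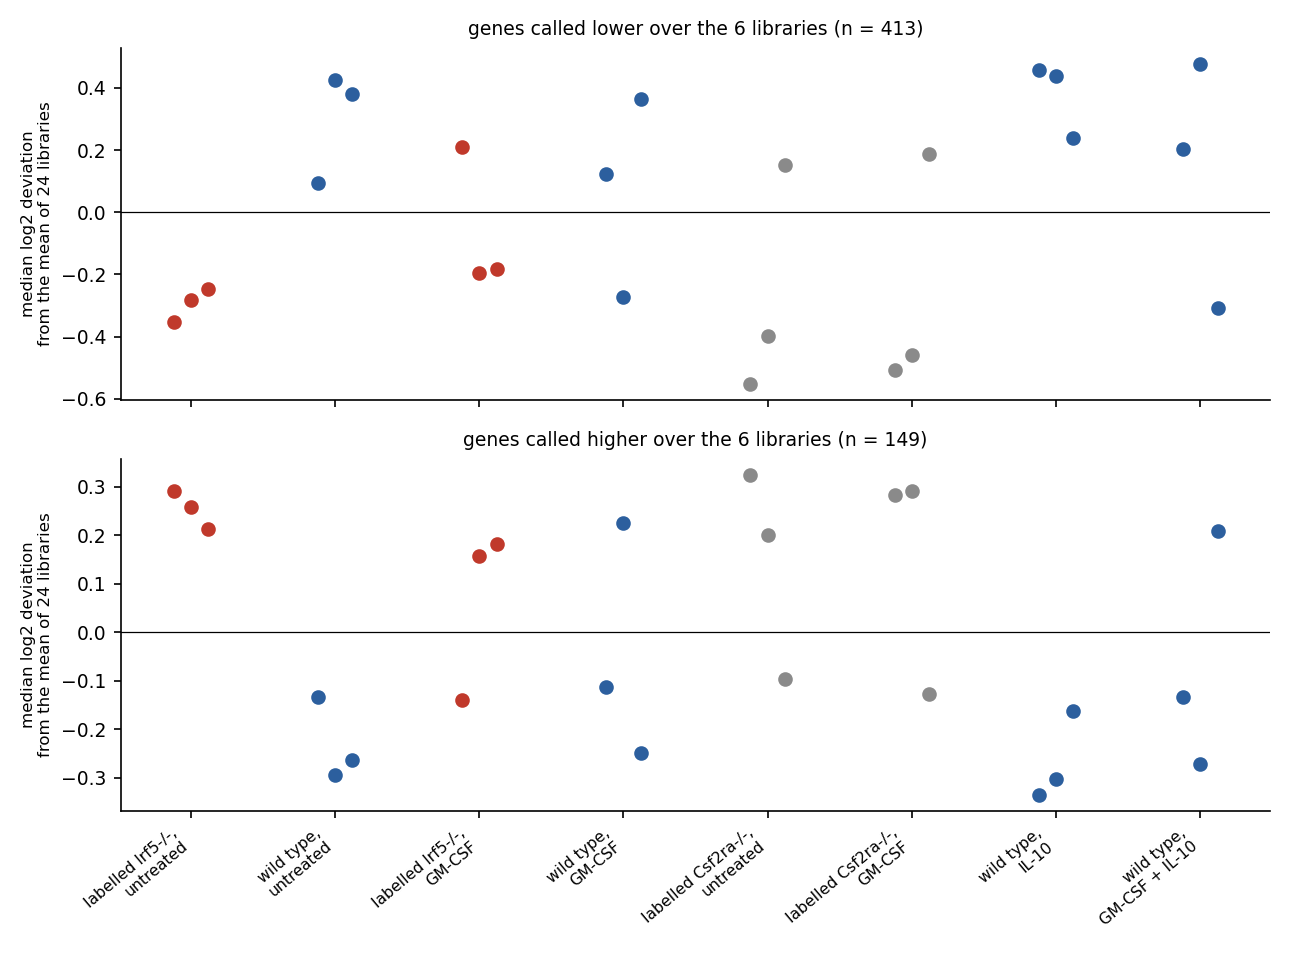
Median deviation (log2 of CPM + 0.5, from each gene's mean over 24 libraries) of the 413 genes called lower and the 149 called higher over the 6 libraries, 1 point a library, colours as for Irf5. The 2 untreated groups at the left were chosen to differ, and libraries of the same group lie on both sides of 0 in 5 of the other 6 groups.

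Of the 9 members of the IRF family, all tested, only Irf5 was called in either fit. Irf3, the factor that drives interferon beta, had a log2 fold change of 0.07 ± 0.14. Irf8, a factor of monocyte and eosinophil development, stood at 3.20, 8.07 and 5.49 CPM against 8.76, 8.35 and 8.45 CPM in wild type, lower without overlap and not called (-0.55 ± 0.35, adjusted p = 0.457). Irf7 stood at 6.72, 7.56 and 4.90 CPM against 6.79, 7.06 and 6.88 CPM, with overlap. A median change of -0.12 was seen over the family.

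The genes that lead from endosomal Toll-like receptors to IRF5 showed no call over 24 libraries in 26 tested members, with a median of -0.04. Over the 6 libraries 1 was higher and 3 were lower (1.31% and 3.64% of all genes). Among the receptors, Tlr8 stood at 0.640, 0.436 and 0.196 CPM against 1.31, 1.98 and 1.79 CPM, low in all 6 libraries and lower in the labelled ones (6-library fit -2.12 ± 0.45, adjusted p = 0.0171). Tlr7 had 0.960, 1.75 and 1.44 CPM against 1.96, 2.07 and 2.32 CPM and was not called. The chaperone Unc93b1, which carries these receptors to endosomes, overlapped between groups (-0.13 ± 0.15), and the transporter Slc15a4, which is needed for IRF5 signalling, had -0.25 ± 0.12 (adjusted p = 0.344). The ubiquitin ligase Traf6 stood at 75.0, 68.0 and 79.3 CPM against 87.0, 111 and 106 CPM and was lower over the 6 libraries (-0.44 ± 0.11, adjusted p = 0.0312). Tnfaip3, an inhibitor of this pathway, was lower by a like amount (-0.46 ± 0.11), and the import factor Kpna2 was higher (0.49 ± 0.11). The adaptor Myd88 had 0.29 ± 0.13 and was called in neither fit.

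Target classes of IRF5 did not pass over 24 libraries. Of 16 inflammatory cytokine genes 8 were tested, and Il12a, Il12b, Il23a and Ifnb1 were below the filter with 21, 7, 8 and 0 counts over the 6 libraries. The 8 had a median of 0.23, and 4 were higher without overlap where 11.4% of all tested genes were. Over the 6 libraries 3 were higher (1.31% of all genes). Il1rn, the interleukin-1 receptor antagonist, was read at 274, 216 and 213 CPM against 133, 131 and 144 CPM (0.79 ± 0.11, adjusted p = 0.0017 in the 6-library fit). Csf1, the macrophage growth factor, stood at 376, 329 and 336 CPM against 231, 248.9 and 239 CPM (0.54 ± 0.09). Il6 stood at 13.8, 13.5 and 10.2 CPM against 7.64, 8.70 and 8.08 CPM (0.61 ± 0.16). All 3 were high in every labelled library. With GM-CSF their log2 fold changes were -0.13 ± 0.37, 0.04 ± 0.20 and 0.34 ± 0.22. Tnf had 0.19 ± 0.12 and Il1b -0.10 ± 0.37 untreated, with no call in either fit.

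Of 17 chemokine genes 12 were tested, with a median of -0.07, and 1 was higher over the 6 libraries (1.31% of all genes). Ccl3 stood at 78.6, 82.4 and 51.9 CPM against 39.6, 39.1 and 51.7 CPM, groups that barely separated (0.70 ± 0.15 over 24 libraries, adjusted p = 0.0856). Among 26 tested interferon-stimulated genes of 37 the median was -0.16, with 1 higher and 5 lower without overlap, where 14.6% of all tested genes were lower. Oas3, a sensor of double-stranded RNA, was the only one called over the 6 libraries, where 3.64% of all genes were called lower. It stood at 0.320, 0.291 and 0.327 CPM against 1.31, 1.03 and 1.05 CPM (-1.83 ± 0.45, adjusted p = 0.0334). Isg15 had -0.10 ± 0.31. Promoters with the ISRE core made up 1.2% (2 of 167) of those of genes called higher over the 6 libraries and 2.85% (12 of 421) of those called lower, against 3.1% of tested genes.

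Immediate early genes, which cells switch on within minutes of a stimulus, moved in both directions in untreated cells. Over 24 libraries 0 of 21 were called (4 higher and 1 lower at an unadjusted p under 0.05), with a median of 0.13. Without overlap 6 were higher and 3 lower (11.4% and 14.6% of all tested genes). With GM-CSF 7 were higher and 0 lower without overlap (3.25% and 3.4% of all tested genes), with a median of 0.14. Over the 6 libraries 3 were higher and 2 lower (1.31% and 3.64% of all genes). Egr2 stood at 18.2 to 25.2 CPM against 9.90 to 15.0 CPM (0.87 ± 0.17, adjusted p = 0.0856 over 24 libraries). Egr3 stood at 66.2, 52.1 and 50.8 CPM against 30.1, 22.6 and 21.3 CPM and Fosb at 4.80, 3.49 and 3.20 CPM against 1.18, 1.46 and 2.02 CPM. All 3 were high in each labelled library, and Egr2 and Fosb did not overlap with GM-CSF either, where they had 0.67 ± 0.16 and 1.62 ± 0.30. The AP-1 subunit Jun went the other way, at 8.32, 10.3 and 8.43 CPM against 16.5, 17.3 and 17.3 CPM (-0.89 ± 0.14 in the 6-library fit), and had 0.03 ± 0.43 with GM-CSF. Egr1 overlapped between the untreated groups, at 551, 515 and 361 CPM against 244, 364 and 378 CPM.

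Of the genes of hypoxia and glycolysis 8 were called lower over the 6 libraries and 0 over all 24. Of 19 tested, 17 were lower without overlap, where 14.6% of all tested genes were, the median was -0.33, and 0 were called over 24 libraries by edgeR (10 lower and 0 higher at an unadjusted p under 0.05). The 8 compare with 3.64% of all genes called lower over the 6 libraries. The glucose transporter Slc2a1 stood at 407, 422 and 438 CPM against 484, 631 and 612 CPM (-0.44 ± 0.10, adjusted p = 0.029). Hexokinase Hk2 stood at 495, 469 and 533 CPM against 597, 715 and 710 CPM (-0.42 ± 0.10). The mitophagy receptor Bnip3 stood at 464, 495 and 444 CPM against 605, 784 and 864 CPM (-0.67 ± 0.12), and the angiogenic factor Vegfa at 151, 192 and 150 CPM against 195, 292 and 290 CPM (-0.64 ± 0.15). In each of these genes wild-type replicate 1 was the lowest of its group. The oxidoreductase Ero1l had the largest difference of the 8 (-0.77 ± 0.11). The list's median was -0.08 with GM-CSF and -0.01 against untreated libraries labelled Csf2ra-/-, whose summed level ran from 22212 to 32104 CPM, across the range of 24093 to 26468 CPM in the libraries labelled Irf5-/-.

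The core ACGTG printed for Bnip3 and Hk2 was held by 34.7% (146 of 421) of the promoters of genes called lower over the 6 libraries, by 19.2% of those called higher, by 25.6% of those of tested genes and by 19.6% of all promoters. In the list of hypoxia and glycolysis genes it was held by 17 of 27 (63%). This motif and TGATGNAA were searched after the values were seen.

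Targets of the integrated stress response, in which ATF4 drives amino acid synthesis and stress genes, gave 9 lower calls over the 6 libraries and 0 over all 24. Of 17 tested, 9 were lower and 2 higher without overlap (14.6% and 11.4% of all tested genes), the median was -0.48, and edgeR called 0 over 24 libraries (6 lower and 1 higher at an unadjusted p under 0.05). Over the 6 libraries 9 were called lower and 1 higher (3.64% and 1.31% of all genes). The pseudokinase Trib3 stood at 22.2, 25.0 and 23.9 CPM against 50.7, 76.1 and 79.8 CPM (-1.52 ± 0.15, adjusted p = 0.000536). Ddit3, which encodes CHOP, stood at 25.0, 36.6 and 28.9 CPM against 57.8, 81.9 and 88.6 CPM (-1.30 ± 0.17). Its value is for ENSMUSG00000025408, which overlaps a second gene of that symbol, so the split of reads is uncertain. Atf4 itself stood at 432, 503 and 400 CPM against 519, 637 and 740 CPM (-0.50 ± 0.13), and asparagine synthetase Asns at 25.4, 26.4 and 27.2 CPM against 38.0, 38.1 and 38.8 CPM (-0.53 ± 0.10). In all 4 genes every labelled library lay below every wild-type one. The serine synthesis genes Phgdh and Psat1 had 0.31 ± 0.20 and 0.18 ± 0.14 and were not called. The cystine transporter Slc7a11, also an ATF4 target, was higher, at 356, 261 and 340 CPM against 202, 156 and 134 CPM (0.97 ± 0.15). With GM-CSF the list's median was -0.11. Trib3 was then read at 76.8, 29.7 and 27.1 CPM in the libraries labelled Irf5-/- and at 62.4, 28.6 and 82.1 CPM in wild type, with high and low libraries in both groups. The core TGATGNAA printed for Asns was held by 5 of 18 promoters of the list (27.8%) and by 2.34% of those of tested genes.

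**Figure D5:**
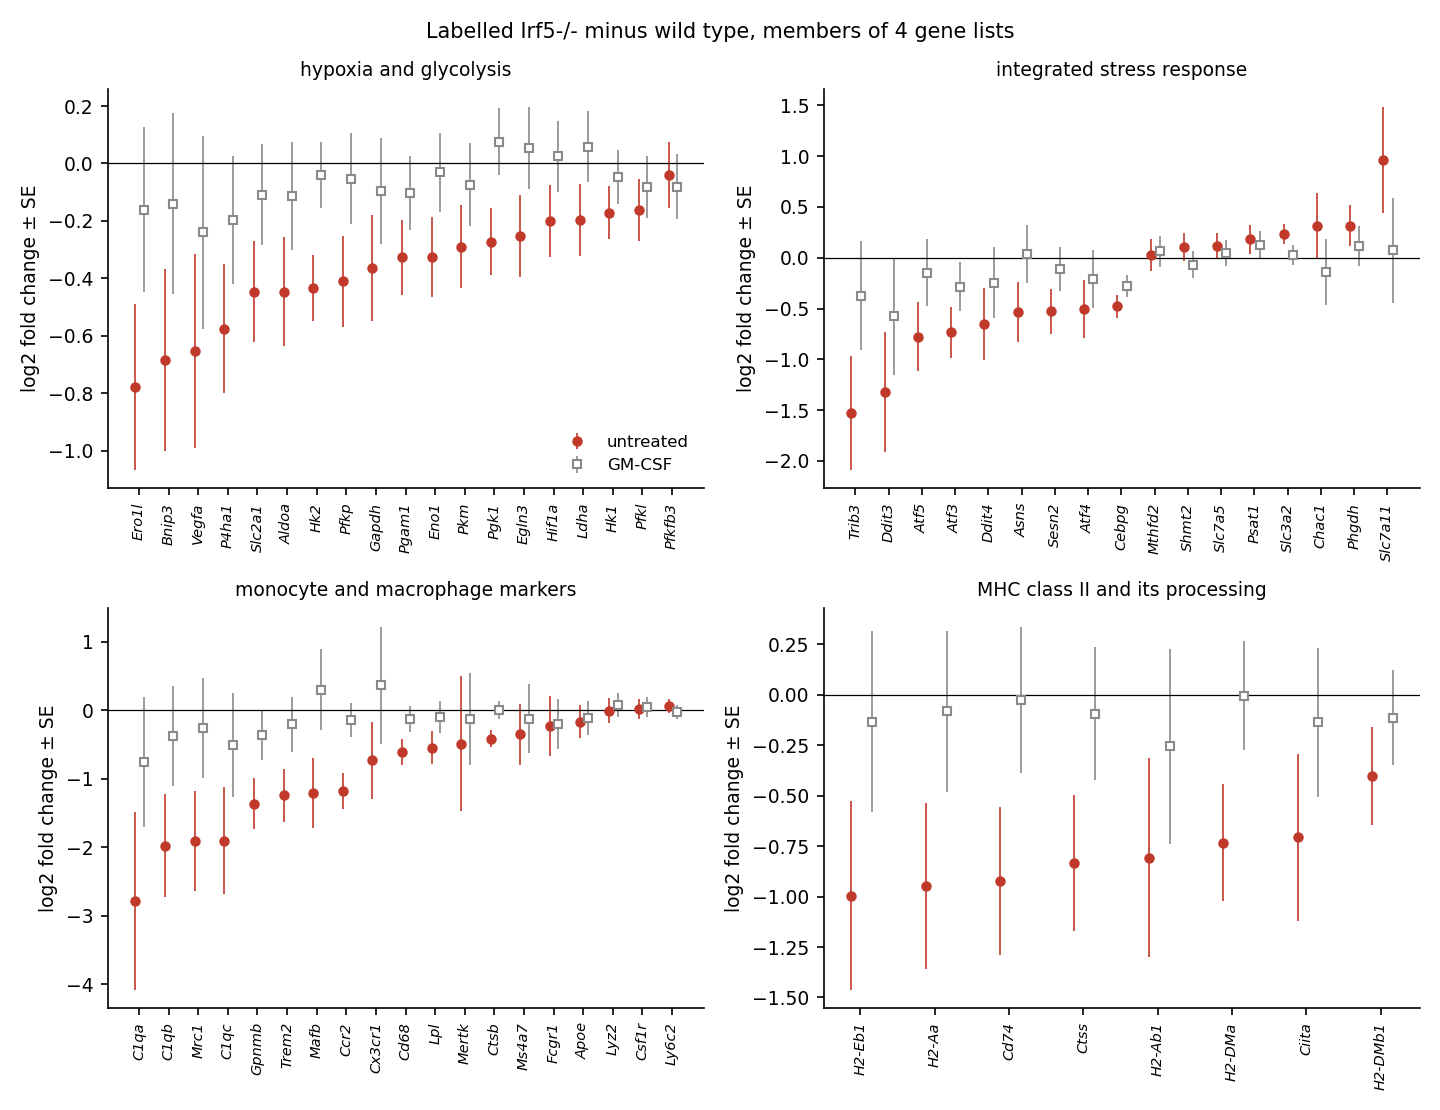
Log2 fold change ± SE over 24 libraries (libraries labelled Irf5-/- minus wild type) of each tested member of 4 gene lists, red for untreated and open grey for GM-CSF, ordered by the untreated value. The list medians are -0.33, -0.48, -0.61 and -0.82 untreated and -0.08, -0.11, -0.13 and -0.10 with GM-CSF, and none of the members passed the test over 24 libraries.

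Of the markers of monocytes and macrophages 7 were called lower over the 6 libraries and 0 over all 24. In bulk RNA fewer cells of a type and less RNA per cell cannot be told apart. Of 21 markers 19 were tested, 10 were lower without overlap (14.6% of all tested genes) and 0 higher, the median was -0.61, and edgeR called 0 over 24 libraries (11 lower at an unadjusted p under 0.05) and 7, all lower, over the 6 (3.64% of all genes). Their summed level was 2337, 2291 and 2343 CPM against 2645, 2521 and 2654 CPM, without overlap. The mannose receptor Mrc1 stood at 2.24, 6.11 and 6.86 CPM against 15.7, 22.6 and 23.1 CPM (-1.88 ± 0.26, adjusted p = 0.00351 over the 6 libraries). The monocyte chemokine receptor Ccr2 stood at 7.84, 13.96 and 11.7 CPM against 27.8, 25.7 and 24.5 CPM (-1.16 ± 0.16). The lysosomal protein Cd68 stood at 36.8, 43.0 and 44.0 CPM against 62.6, 64.3 and 63.5 CPM (-0.60 ± 0.10), and the complement gene C1qb at 0.640, 2.98 and 2.35 CPM against 5.16, 10.9 and 9.94 CPM (-1.94 ± 0.37). Lyz2 overlapped between the groups, at 262, 207 and 229 CPM against 292, 203 and 206 CPM. So did Csf1r, the receptor for CSF1, at 149, 165 and 167 CPM against 138, 166 and 171 CPM. The markers named here hold the smaller part of the summed level, and the members that carry its difference are not named. Untreated libraries labelled Csf2ra-/- had Mrc1 at 2.34, 2.59 and 3.08 CPM and Ccr2 at 7.03, 6.36 and 4.79 CPM, below wild type as well. Against that reference the median of the list was 1.03, of the opposite sign.

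Genes of MHC class II and its loading are expressed by macrophages, dendritic cells and B cells. All 8 were tested, 6 were lower without overlap (14.6% of all tested genes) and 3 were called lower over the 6 libraries (3.64%), with a median of -0.82 and 0 called over 24 libraries by edgeR (5 at an unadjusted p under 0.05). Their sum was 205, 447 and 349 CPM in the libraries labelled Irf5-/- against 597, 616 and 630 CPM. H2-Ab1 stood at 48.8, 83.9 and 64.4 CPM against 99.3, 122 and 126 CPM (-0.79 ± 0.16, adjusted p = 0.0207 over the 6 libraries), and the protease cathepsin S, Ctss, at 31.8, 54.7 and 57.0 CPM against 94.1, 76.3 and 88.5 CPM (-0.82 ± 0.18). The invariant chain Cd74 stood at 68.5, 177 and 128 CPM against 231, 240 and 242 CPM and was called in neither fit. Replicate 1 labelled Irf5-/- was the lowest library for each of these 3 genes. The macrophage markers moved with this list, and their part in the result was not tested. With GM-CSF the class II sums were 417 to 1014 CPM in the libraries labelled Irf5-/- and 410 to 932 CPM in wild type, and untreated libraries labelled Csf2ra-/- had 158 to 283 CPM.

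Granule and lineage genes of eosinophils, the defining markers of the labelled cell type, were abundant in all 6 libraries. Prg2 stood at 47816, 53221 and 48540 CPM against 42929, 40320 and 45566 CPM and Epx at 15137, 14611 and 17059 CPM against 15978, 15032 and 13803 CPM. Prg2 was higher without overlap and not called (0.22 ± 0.12), while Epx overlapped. Of 26 tested members 10 were higher and 2 lower without overlap (11.4% and 14.6% of all tested genes), with a median of 0.13 and 0 called over 24 libraries by edgeR (5 higher and 1 lower unadjusted). The summed level was 99533 to 104880 CPM against 87907 to 92026 CPM. Over the 6 libraries 3 were higher and 1 lower (1.31% and 3.64% of all genes). Hdc, which makes histamine, stood at 311, 324 and 352 CPM against 234, 176 and 187 CPM (0.74 ± 0.11, adjusted p = 0.00286). Il5ra, the IL-5 receptor chain, stood at 94.9, 77.8 and 82.9 CPM against 70.2, 60.3 and 49.4 CPM (0.51 ± 0.12), and Cebpe, a factor of late granulocyte development, at 615, 667 and 641 CPM against 533, 463 and 499.6 CPM (0.37 ± 0.09). All 3 were high in each labelled library. The ribonuclease Rnase2a was lower, at 0.640, 2.69 and 0.719 CPM against 3.85, 9.30 and 9.72 CPM (-2.36 ± 0.51). It belongs to a family of near-identical genes, so its reads are uncertain.

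Markers of other cell types that such cultures can hold had 0 calls over 24 libraries by edgeR. Over the 6 libraries 1 neutrophil marker and 1 erythroid and megakaryocyte marker were higher (1.31% of all genes). Called lower there were 1 dendritic cell marker and 1 marker of T and natural killer cells (3.64% of all genes). Neutrophil markers (17 tested, 2 higher and 1 lower at an unadjusted p under 0.05) had a median of 0.08 and summed levels of 2276, 2375 and 2276 CPM against 2107, 1807 and 2020 CPM, high in every labelled library. Dendritic cell markers (11 tested, 0 higher and 1 lower) had a median of -0.40 and sums of 31.7 to 46.2 CPM against 45.1 to 48.4 CPM. Erythroid and megakaryocyte markers (8 tested, 3 higher and 0 lower) had a median of 0.07 and sums of 1324 to 1351 CPM against 1138 to 1197 CPM. Mast cell and basophil markers (9 tested, 1 higher and 1 lower) had a median of 0.17, and the 4 tested B cell markers had sums of 144 to 156 CPM against 116 to 131 CPM. The part of these cells in the results was not tested.

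Cell cycle genes had 2 higher calls over the 6 libraries, where 1.31% of all genes were called higher. Their summed level separated from 2 of the 3 wild-type libraries. Of 24 tested, 12 were higher and 1 lower without overlap (11.4% and 14.6% of all tested genes), with a median of 0.32, 0 called over 24 libraries by edgeR (13 higher and 1 lower unadjusted) and 2 higher over the 6 libraries. The summed level was 2521, 2419 and 2445 CPM in the libraries labelled Irf5-/- and 2436, 1857 and 1792 CPM in wild type, so wild-type replicate 1 lay among the labelled libraries. Rrm2, a subunit of ribonucleotide reductase, stood at 156, 155 and 150.2 CPM against 134, 99.8 and 93.0 CPM (0.50 ± 0.12, adjusted p = 0.0304), and thymidylate synthase Tyms at 31.4, 34.0 and 26.3 CPM against 22.7, 16.9 and 17.8 CPM (0.67 ± 0.14). Against untreated libraries labelled Csf2ra-/- the median of the list was -0.32.

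Surface receptors had few calls over the 6 libraries, where 1.31% of all genes were called higher and 3.64% lower. Of 21 tested pattern-recognition and Fc receptors 3 were higher, among them the fungal and cell-debris receptor Clec4e at 46.2, 38.2 and 35.9 CPM against 28.0, 21.9 and 19.2 CPM (0.79 ± 0.14, adjusted p = 0.00766). Of 21 tested Siglec, CD300 and paired receptors 2 were higher and 1 lower. Cd33, a member of the Siglec family, stood at 175, 128 and 145 CPM against 117, 108 and 97.1 CPM (0.48 ± 0.11), and the amplifying receptor Trem1 at 20.0, 17.0 and 17.5 CPM against 11.6, 8.35 and 12.6 CPM (0.73 ± 0.16). Cd300ld was lower, at 13.6, 13.2 and 12.9 CPM against 22.6, 21.3 and 19.1 CPM (-0.67 ± 0.14 over 24 libraries, adjusted p = 0.0874). With GM-CSF it had 0.06 ± 0.14, and all 6 libraries lay at 10.3 to 12.5 CPM.

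Among the 12 largest rises over the 6 libraries with at least 5 CPM in the higher group were Ptgs2, the inducible prostaglandin synthase, at 29.0, 17.4 and 11.9 CPM against 9.08, 8.44 and 6.88 CPM (1.20 ± 0.27, adjusted p = 0.0326), and Mmp8, a granule collagenase, at 264, 165 and 209 CPM against 138, 106 and 98.8 CPM (0.90 ± 0.16). Among the 12 largest falls by the same rule were F13a1, a clotting factor chain that monocytes also make, at 2.72, 5.02 and 4.31 CPM against 15.7, 12.7 and 11.6 CPM (-1.66 ± 0.20), and Tnfrsf9, which encodes 4-1BB, at 2.56, 3.93 and 2.09 CPM against 5.88, 11.7 and 11.7 CPM (-1.73 ± 0.30). None of the 4 overlapped between the untreated groups. With GM-CSF, Tnfrsf9 stood at 14.9, 5.79 and 5.23 CPM in the libraries labelled Irf5-/- and at 12.5, 4.28 and 21.3 CPM in wild type, again with high and low libraries within each group.

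Genes near Irf5 on chromosome 6 were read because a targeted allele can carry flanking sequence of another strain. Within 10 Mb on either side 62 genes were tested and Irf5 was the only one called over 24 libraries. The other 61 had a median of -0.11, with 9 higher and 20 lower without overlap, where 11.4% and 14.6% of all tested genes were. Over the 6 libraries 7 of them were called lower (3.64% of all genes) and 0 higher (1.31%). The neighbour Kcp stood at 1.44, 1.67 and 1.18 CPM against 0.653, 0.947 and 0.972 CPM (0.74 ± 0.61, adjusted p = 0.57). Tnpo3 (minus strand, 29540827 to 29609887), whose end overlaps the end of Irf5, stood at 78.9, 71.3 and 81.4 CPM against 79.9, 84.8 and 72.8 CPM (-0.04 ± 0.11). It lies on the strand opposite to Irf5, and how reads shared by overlapping genes were counted was not stated. What its level means for the reads of Irf5 was not tested. Bmt2 lies 15.9 Mb before the start of Irf5, within a window of 20 Mb. Dock2, a gene mutated in some colonies of mice carrying an Irf5 allele, had -0.01 ± 0.14. Gene-level counts cannot show a change within the gene, so whether these mice carried one was not tested.

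As a check of the 6 libraries, total counts ran from 6222979 to 15342210, with the lowest in replicate 1 labelled Irf5-/-, and 13001 to 14447 genes had a count. The counts of replicate pairs differed by 4.99 to 15.5 times sampling noise, so no library was a repeat of another. The summed level of 4 Y-linked genes was 178, 12.1 and 39.3 CPM in the libraries labelled Irf5-/- and 173, 58.2 and 52.7 CPM in wild type, so within each group the 3 libraries cannot all be repeats of 1 culture. With that level as a covariate edgeR called 5 genes. Stromal and endothelial markers had summed levels of 529, 531 and 558 CPM in the libraries labelled Irf5-/- against 477, 445 and 444 CPM, high in every labelled library. Of 6 tested, 0 were called by edgeR over 24 libraries and 4 were higher at an unadjusted p under 0.05, with a median log2 fold change of 2.67. Only 1 was higher without overlap, where 11.4% of all tested genes were. Of the 5 tested over the 6 libraries alone, 0 were called. The collagen gene Col1a1 stood at 0, 15.0 and 5.55 CPM against 0.196, 1.12 and 2.17 CPM. Replicate 1 labelled Irf5-/- thus reached its sum of 529 CPM with Col1a1 at 0, so other members carried that sum. The part of stromal and endothelial cells in the results was not tested.

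The comparison with GM-CSF used other libraries of the same genotypes. In those labelled Irf5-/- the Y-linked sums were 163, 13.2 and 44.0 CPM, close to the untreated values in the same order. In wild type they were 178, 176 and 52.5 CPM with GM-CSF against 173, 58.2 and 52.7 CPM untreated. The wild-type groups were thus not matched in this level between treatments, and its part in the results was not tested. Whether the treatments shared cultures was not tested either. The libraries were fitted as independent. edgeR called 4 genes of 11885 (0.0337%), all higher in the libraries labelled Irf5-/- and 0 lower (69 lower, 0.581%, at an unadjusted p under 0.05). They were Irf5 (4.44 ± 0.18), the transcription factor Egr1 (2.20 ± 0.22, adjusted p = 1.07e-05), the phosphatase Dusp1 (1.23 ± 0.19) and the activation marker Cd69 (0.98 ± 0.18). Untreated, Dusp1 had 0.37 ± 0.18 and Cd69 0.77 ± 0.18, not called. The test of the difference between the 2 effects called 0 genes with edgeR (375, 3.16%, at an unadjusted p under 0.05) and 1 with DESeq2.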

How the data were processed

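Polyadenylated RNA of 24 libraries was sequenced after a strand-specific preparation, per the labels' protocols. The deposited files hold read counts per Ensembl gene. Per the submitters' processing notes, reads were aligned with STAR and counted with featureCounts on the build GRCm38.p6. Versions, strand setting and the handling of multi-mapping reads were not stated in these sources. Overlapping or near-identical genes are therefore uncertain.

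The files list 25746 genes, and 34 lacked a symbol in GENCODE release M21 (0.01888% of counts) and stayed in the fit. Library totals ran from 6222979 to 18709153. Groups came from the genotype and treatment labels. Counts were scaled by TMM (factors 0.9388 to 1.031) and filtered with filterByExpr, and 1 model of 8 group means was fitted to the 24 libraries with robust quasi-likelihood in edgeR 4.0.16 on R 4.3.3. Calls were made at an adjusted p (Benjamini-Hochberg, all tested genes) under 0.05. Log2 fold changes carry ± SE and CPM are TMM-scaled. All adjusted p-values are edgeR's unless DESeq2 1.42.0 or limma 3.58.1 is named. The script was tested on simulated counts.

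Gene lists numbering 40 were described by counts and medians. Members and lists were chosen with earlier results of these data known. Named genes were those called, without overlap, at 5 CPM or more, up to 12 in each direction, with Irf5, its neighbours, Dock2 and list members. A second rule, added later, took genes called over the 6 libraries. Promoters came from RefSeq (GRCm38.p6); 9187 of 11869 tested symbols matched. Alternatives are given in the closing section.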

Additional observations from a re-analysis of the deposited data

Results flagged for a closer look

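Egr1, an immediate early transcription factor, differed between the effects of the Irf5 label with and without GM-CSF. The difference of the log2 fold changes (GM-CSF minus untreated) was 1.65 with DESeq2 (adjusted p = 0.000717) and 1.67 ± 0.30 with edgeR (adjusted p = 0.194), so DESeq2's test called it and edgeR's did not. With GM-CSF, Egr1 stood at 435, 503 and 414 CPM in the libraries labelled Irf5-/- and at 67.3, 109.6 and 118 CPM in wild type. Untreated, it stood at 551, 515 and 361 CPM against 244, 364 and 378 CPM. The low values were those of wild type with GM-CSF.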

How the results depend on the processing

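The untreated comparison called 4 genes over 24 libraries and 562 with only the groups compared, 23 with DESeq2, 9 with no low-count filter and 93 with untreated libraries labelled Csf2ra-/- as the control. Leaving out 1 library at a time gave 1 to 8 over 24 libraries and 57 to 1526 over the 6. Without the libraries labelled Csf2ra-/- in the fit, an alternative chosen after seeing the data as were the left-out libraries over the 6, it was 4. Other scalings, a stricter filter, limma-voom, a Y-linked covariate, edgeR without robust and a fold threshold gave 3 to 5. The GM-CSF comparison called 4 genes, 2 with only the groups compared, 8 with DESeq2 and 2 to 5 with 1 library left out. The difference of effects called 0 and 1 with DESeq2, and 0 in every fit with 1 library left out. Near Irf5, 1 gene was called, 2 within 20 Mb, 2 with libraries labelled Csf2ra-/- as the control, 2 with DESeq2, 8 with only the groups compared and 1 with any library left out. Rab7b reversed to 0.81 with libraries labelled Csf2ra-/- as the control. The cause of these changes was not tested. No paired analysis was possible because the labels carry no replicate numbers shared between groups. The Y-linked sums of the libraries labelled Irf5-/- match across treatments, while those of wild type do not. With 3 libraries a group and the lowest at 6222979 counts, genes near 1 CPM rest on few reads.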
